A study of Mus musculus with 9 samples.

Results

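Mammalian cells take up glucose through facilitative transporters of the Slc2a family and trap it inside by phosphorylation, which hexokinases carry out and glucose-6-phosphate isomerase follows by converting the product to fructose 6-phosphate. The data below cover 9 genes of this entry route, chosen by symbol from a table of 40548 genes: the transporters Slc2a1, Slc2a3, Slc2a4, Slc2a6 and Slc2a8, the hexokinases Hk1, Hk2 and Hk3, and Gpi1, the isomerase. All 9 were found, and each passed the filter on low values (a mean CPM, the count scaled to the library total, of at least 1). The tables hold 12 Slc2a genes and 5 hexokinases in all, and these served as the family in which the share of each isoform was taken.

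RNA-seq was performed on primary calvarial osteoblasts, the bone-forming cells of the skull vault, isolated from C57BL/6 mice at postnatal day 2-3. Cells grown to confluency without differentiation (day 0) were compared with cells kept for 4 or 7 days in mineralization medium, which contained ascorbic acid and β-glycerol phosphate, with 3 libraries per stage. Mineralized cells were released with collagenase I before trypsin and the others were not, so that the enzyme and the stage cannot be told apart. The cultures were neither sorted nor clonal, and in such bulk samples a change in the number of cells of a type and a change in RNA per cell cannot be told apart either. The paper's legends call the replicates biological without saying whether they came from separate litters, so that p-values speak for these libraries alone. Those of limma, used below for days 0 and 7, also rest on variance borrowed from all genes. That prior had 42.9 degrees of freedom against 4 residual.

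Between 7741204 and 14013219 reads fell on genes in the day 0 libraries, 10675858 to 15622755 at day 7 and 32820610 to 37306090 at day 4. Days 0 and 7 share a table and were compared by limma, whereas day 4 lies in a table of its own and is described by its values. Of 12 osteoblast markers, 11 were higher at day 7 and none was lower, against 12.6% and 18.6% of all genes tested. The median log2 fold change of these markers was 4.28. Some were near 0 at day 0 and entered the test through day 7, such as Sost and Mepe. Their means were 0.034 and 0.026 RPKM at day 0 and 4.95 and 3.57 at day 7. Gm42418 took 11.97% of the day 0 replicate 3 total, against 2.94% and 3.04% in its companions, and leaving out that library raised the number of genes called from 3971 to 6299. At day 7 the top gene was Gm42418 in replicate 2, with 8.12% of the total, and Plekhh2 in replicate 3, with 7.95%. The main test used CPM without further scaling.

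Glucose transporters differ in where they act. Slc2a1 encodes GLUT1, the widely expressed basal transporter of the cell surface, and Slc2a3 encodes GLUT3, a high-affinity form best known from neurons. Slc2a4 encodes GLUT4, which moves to the surface of muscle and fat cells in response to insulin, whereas the products of Slc2a6 and Slc2a8 reside mainly on inner membranes. Among hexokinases, the products of Hk1 and Hk2 bind the outer mitochondrial membrane, Hk1 is expressed in most tissues, and Hk2 is the form typical of muscle, fat and rapidly growing cells.

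Of the 9 genes, 6 rose from day 0 to day 7 and none fell, by limma at a Benjamini-Hochberg adjusted p under 0.05. Across the 12712 genes tested, 12.6% were called higher and 18.6% lower, or 31.2% in either direction. The median log2 fold change of the 9 was 1.08 and that of all genes was -0.11. The risers were Slc2a1, Slc2a3, Hk1, Hk2, Hk3 and Gpi1, and the values for Slc2a4, Slc2a6 and Slc2a8 did not pass. The filter on low values was a mean over days 0 and 7. Hk3 passed it through day 7, with means of 0.747 CPM at day 0 and 1.84 at day 7, so its call rests on the stage that admitted it. The risers numbered 5 when a mean of at least 5 CPM was required, which left Hk3 out. Log2 fold changes are given on the log2(CPM + 0.5) scale, which understates changes of low genes, and levels are given in RPKM (CPM divided by the length of the gene model in kilobases).

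**Figure D1:**
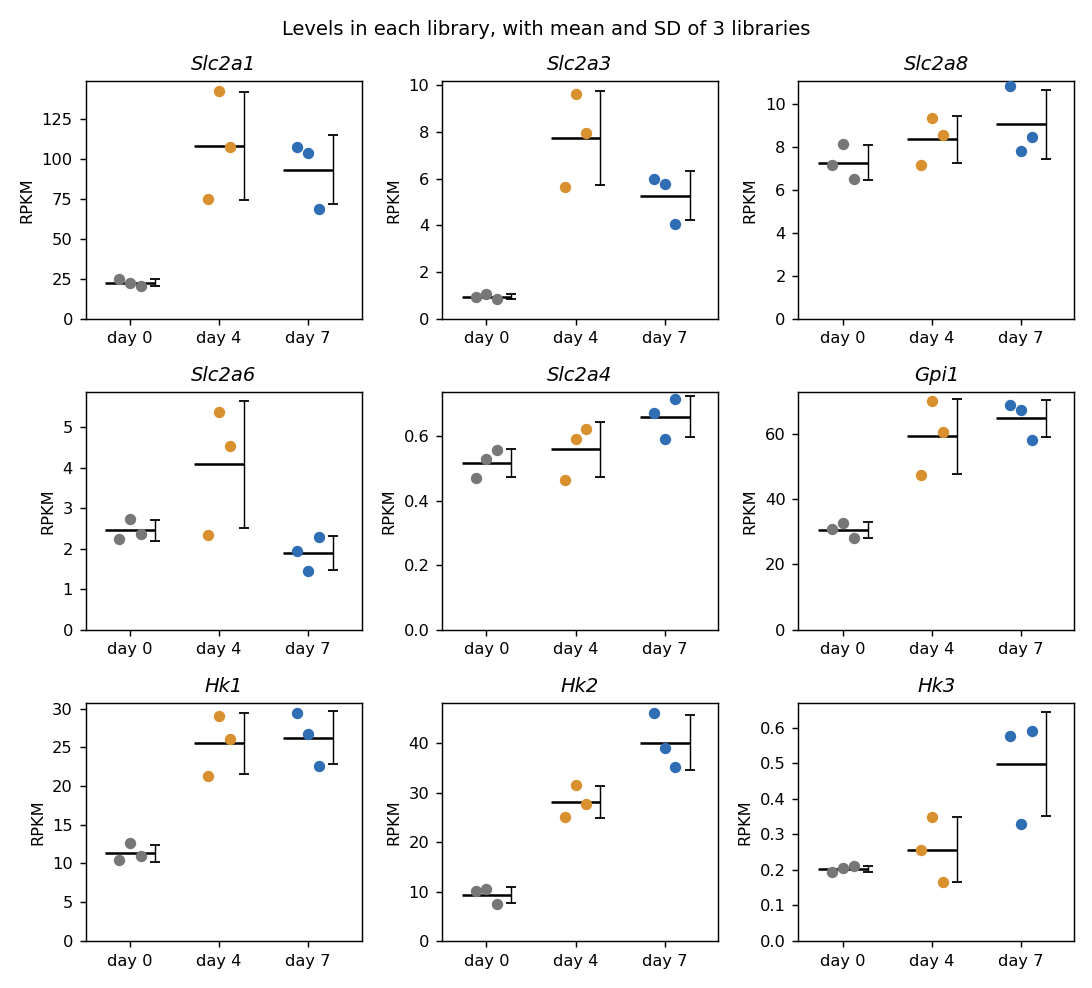
Levels of the 9 genes in RPKM (vertical axes, linear and starting at 0) in each of the 3 libraries of day 0, day 4 and day 7. Points are libraries in order of replicate number, horizontal lines are means and error bars are SD (n = 3). The panels for Slc2a1, Slc2a3, Hk1, Hk2 and Gpi1 show no overlap between day 0 and the later stages, Hk2 steps up again at day 7, and Slc2a6 is highest at day 4.

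The promoters of these genes were read for the hypoxia response core, the short motif bound by hypoxia-inducible factors, because Slc2a1 and Hk2 are textbook targets of those factors. The motifs searched were ACGTG and GCGTG on both strands in the 250 bases upstream of the RefSeq start (GRCm38.p6), of which 16.6% and 28.2% of the 32851 promoters in the table held a match, and 38.6% held either. The 4 promoters below set the largest rises among the members with a promoter there side by side with a riser without a match and a non-riser with several. They were picked with the matches and the fold changes known. Each reads 5′ to 3′ on the strand of the gene, with matches on either strand in capitals.
Slc2a1: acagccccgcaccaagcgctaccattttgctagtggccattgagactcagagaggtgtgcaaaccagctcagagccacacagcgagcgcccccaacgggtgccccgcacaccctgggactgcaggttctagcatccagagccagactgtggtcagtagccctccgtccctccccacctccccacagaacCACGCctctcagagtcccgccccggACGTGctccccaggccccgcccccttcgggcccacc
Hk2: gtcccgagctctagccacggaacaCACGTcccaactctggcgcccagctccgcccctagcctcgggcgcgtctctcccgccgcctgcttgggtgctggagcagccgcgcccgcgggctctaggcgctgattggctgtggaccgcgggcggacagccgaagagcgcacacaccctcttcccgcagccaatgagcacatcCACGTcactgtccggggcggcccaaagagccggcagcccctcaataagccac
Gpi1: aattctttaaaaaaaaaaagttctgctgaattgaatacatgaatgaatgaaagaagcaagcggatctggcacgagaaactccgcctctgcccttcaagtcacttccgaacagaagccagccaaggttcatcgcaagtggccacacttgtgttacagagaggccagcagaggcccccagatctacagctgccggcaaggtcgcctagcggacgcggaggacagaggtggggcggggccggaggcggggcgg
Slc2a6: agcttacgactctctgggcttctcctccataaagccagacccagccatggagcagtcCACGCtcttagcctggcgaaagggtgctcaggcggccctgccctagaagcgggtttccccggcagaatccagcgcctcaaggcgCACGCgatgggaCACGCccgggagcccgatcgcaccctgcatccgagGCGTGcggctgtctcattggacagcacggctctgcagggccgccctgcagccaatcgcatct

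The Slc2a1 stretch lies at chr4:119108495-119108744 on the plus strand and holds 1 match to each core, which begin 61 and 36 bases before the start. The Hk2 stretch, chr6:82774455-82774704 on the minus strand, holds 2 matches to ACGTG at 226 and 52 bases before the start and 3 copies of the GC box GGGCGG, a motif found on either strand in 32.7% of promoters. No match to either core lies in the Gpi1 stretch, chr7:34230337-34230586 on the minus strand. The Slc2a6 stretch, chr2:27027999-27028248 on the minus strand, holds 4 matches to GCGTG. The table has 2 starts for Hk1. The upstream start of Hk1 had no match, and the stretch before its downstream start, chr10:62340422-62340671 on the minus strand, had 3, of which the last pair overlapped. Hk3 and Slc2a8 held 1 match each, and Slc2a3 and Slc2a4 were not among the promoters used. The matches describe letters only, and binding was not measured. They were found upstream of genes that rose and of Slc2a6 and Slc2a8, which did not pass, and were not found in the window of Gpi1, which rose. A relation between the matches and the changes in level was not tested.

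Slc2a1, on chromosome 4 at 119108711 to 119137983 of GRCm38 (plus strand), was the most abundant transporter at every stage. Its level was 25.05, 22.2 and 20.5 RPKM in the 3 day 0 libraries, 75.1, 142.7 and 107.2 at day 4, and 107.6, 104.0 and 68.5 at day 7. Every later library lay above every day 0 library, while days 4 and 7 overlapped. The stage means were 22.6 ± 2.30, 108.3 ± 33.8 and 93.4 ± 21.6 RPKM (SD, n = 3). From day 0 to day 7 the log2 fold change was 2.02 (SE 0.16, 95% interval 1.69 to 2.35, limma adjusted p = 1.72e-14). The day 4 spread was wide, with replicate 2 the highest and replicate 1 well below both companions.

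Slc2a3, on chromosome 6 at 122727809 to 122801640 (minus strand), showed the largest fold change of the 9. It stood at 0.915, 1.06 and 0.855 RPKM at day 0, at 5.64, 9.61 and 7.96 at day 4, and at 5.99, 5.76 and 4.07 at day 7. Day 0 did not overlap either later stage, and the day 7 mean of 5.28 ± 1.05 RPKM was below the day 4 mean of 7.74 ± 1.99, with overlapping libraries. The log2 fold change from day 0 to day 7 was 2.38 (SE 0.19, limma adjusted p = 3.87e-15). Within each library the ratio of Slc2a3 to Slc2a1 had a mean log2 of -4.58 at day 0, -3.79 at day 4 and -4.14 at day 7. The 3 stages did not overlap in this ratio (exact permutation test, two-sided p = 0.1 for each pair, the smallest that 3 against 3 libraries allow). Slc2a3 thus remained the minor form, yet gained on Slc2a1 by day 4.

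Slc2a6, on chromosome 2 at 27021363 to 27027998 (minus strand), differed in its course. The day 0 libraries stood at 2.24, 2.73 and 2.37 RPKM, the day 4 libraries at 2.34, 5.38 and 4.53, and those of day 7 at 1.94, 1.46 and 2.29. All day 7 values were under the lowest of day 4, as for 24.6% of all genes, whereas day 0 overlapped both. The margin was narrow, with 2.29 RPKM in day 7 replicate 3 and 2.34 in day 4 replicate 1. The median-of-ratios size factors of these libraries, 0.979 and 1.013, differ by more than that, so the separation depends on scaling. Day 4 replicate 1 lay among the day 0 values and its companions were higher. The log2 fold change from day 0 to day 7 was -0.36 (95% interval -0.78 to 0.06, limma adjusted p = 0.193).

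Slc2a8, on the same chromosome at 32972990 to 32982083 (minus strand), ran from 7.14, 8.12 and 6.52 RPKM at day 0 through 7.17, 9.32 and 8.54 at day 4 to 10.8, 7.82 and 8.46 at day 7. All stages overlapped. Its log2 fold change was 0.30 (95% interval -0.06 to 0.66, limma adjusted p = 0.211), and it passed as higher, at 0.40 to 0.43, by edgeR, by DESeq2, by voomWithQualityWeights and after median-of-ratios scaling. In the log2 ratio of Slc2a6 to Slc2a8, means of -1.57, -1.11 and -2.26 at days 0, 4 and 7 placed every day 7 library below all others.

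Slc2a4, on chromosome 11 at 69942539 to 69948188 (minus strand), was near the lower limit of the data, with 15 to 23 reads at day 0, 53 to 78 at day 4 and 22 to 39 at day 7. Its level was 0.472, 0.529 and 0.557 RPKM at day 0, 0.464, 0.593 and 0.622 at day 4, and 0.673, 0.592 and 0.717 at day 7. Day 7 lay above day 0 in every library by a small margin, the log2 fold change was 0.28 (95% interval -0.22 to 0.78), and the limma adjusted p was 0.424. Marker lists of the tissues that depend on this insulin-regulated form were read beside it. The 8 adipocyte genes summed to 1.92 to 4.48 RPKM over the 9 libraries, with Cidec, Lep and Retn at 0 throughout. Among them Pparg had means of 1.085, 1.517 and 1.675 RPKM at days 0, 4 and 7, and Fabp4 had 1.903, 0.68 and 0.55. For Slc2a4 the means were 0.519, 0.560 and 0.661. The 8 skeletal muscle genes summed to 2.53 to 4.22 RPKM at day 0, 6.05 to 10.8 at day 4 and 4.22 to 7.83 at day 7. Most of that sum was Acta1, with means of 2.17, 6.31 and 4.56 RPKM. Mylpf, Tnnt3 and Tnni2 were far lower, and Ckm, Myh3, Myh4 and Myog were near 0 at every stage. The part of such cells in the Slc2a4 signal was not tested.

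The remaining transporters of the family were read in the same libraries. Slc2a10, which encodes GLUT10, rose from 7.03 ± 0.694 RPKM at day 0 to 10.5 ± 2.16 at day 7 (log2 fold change 0.55, limma adjusted p = 0.0116). Slc2a13, a proton-coupled myo-inositol transporter, rose from 1.89 to 3.15 RPKM (0.74, adjusted p = 0.00142). Slc2a12 rose from 0.484 to 0.869 RPKM (0.70, adjusted p = 0.0217), with 8.55% of its 50-base words shared with the neighbour Tbpl1 on the other strand. Slc2a9, which encodes a urate transporter, had stage means of 0.692, 0.507 and 0.477 RPKM, with no overlap between day 0 and the later stages, and did not pass (-0.45, adjusted p = 0.143). Over the whole family 9 of 12 genes could be tested, 5 rose and none fell, against 12.6% and 18.6% of all genes tested. The 5 include Slc2a1 and Slc2a3. Slc2a2, Slc2a5 and Slc2a7 were below the filter.

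The summed RPKM of the 12 transporters was 47.2, 45.2 and 39.7 at day 0, 106.3, 181.9 and 145.0 at day 4, and 144.7, 131.9 and 99.2 at day 7. Slc2a1 made up 87.1% of the increase in the mean from day 0 to day 7 and 85.4% of that to day 4. Its share of the sum averaged 51.3% ± 2.00 in undifferentiated cells, then 74.3% ± 3.94 and 74.1% ± 4.85 at the later stages (SD, n = 3). The level of this share depended on length. By CPM it averaged 44.5%, 65.1% and 65.5% at days 0, 4 and 7, and per length of the principal transcript 43.9%, 66.3% and 66.9%. In RPKM the share went as follows. Every later library exceeded every day 0 library, with a gain of 22.8 percentage points from day 0 to day 7 (two-sided p = 0.1 by exact permutation of the libraries, which can give no smaller value). Days 4 and 7 overlapped in this share.

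The shares of the others were redistributed below it. Slc2a8 went from 16.5% to 5.92% and 7.32%. Slc2a10 had 15.9%, 8.17% and then 8.501% of the sum, although its own level rose. Slc2a6 had 5.59%, 2.76% and 1.59% at the 3 stages, and Slc2a3 had 2.15%, 5.36% and 4.204%. The share of Slc2a3 depended on length, at 4.73%, 11.9% and 9.43% by CPM and 3.84%, 9.996% and 7.94% per length of the principal transcript, so that its gain from day 0 to day 7 was 2.06 percentage points by RPKM and 4.70 and 4.10 by the others. Slc2a3 was thus the only tested transporter besides Slc2a1 whose later shares all exceeded those of day 0, and at day 7 its share lay below that at day 4 in every library. Slc2a4 held 1.19%, 0.397% and 0.546%.

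**Figure D2:**
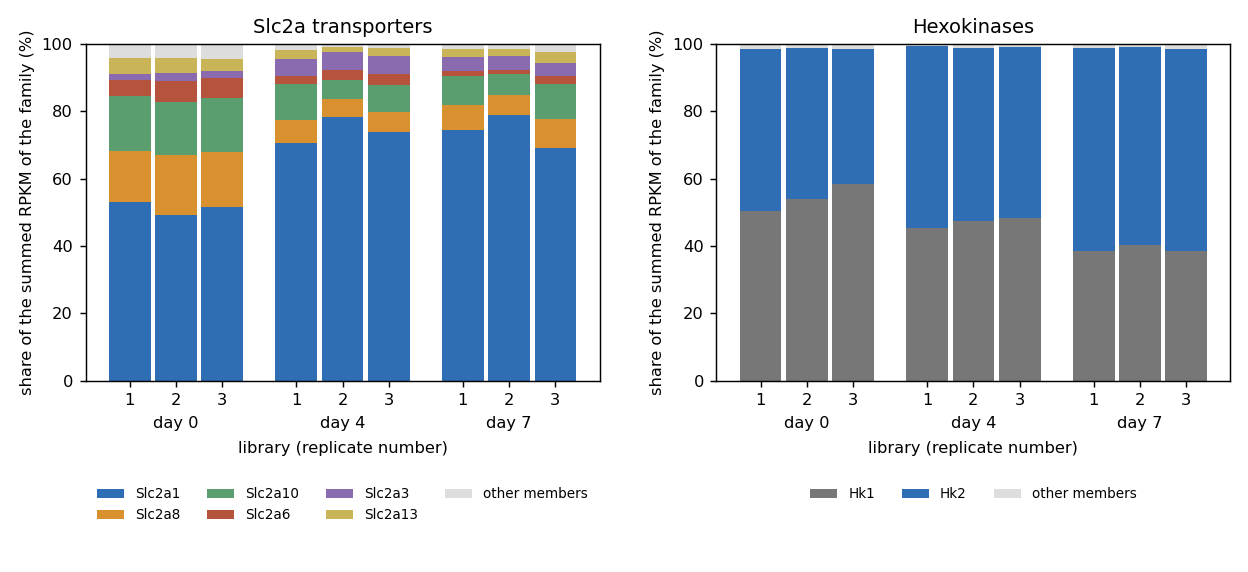
Share of each gene in the summed RPKM of its family (vertical axes, percent) in every library, for 12 Slc2a transporters (left) and 5 hexokinases (right). Bars are single libraries, numbered by replicate within day 0, day 4 and day 7. Slc2a1 goes from a mean of 51.3% to 74.3% by day 4 and stays there, whereas Hk2 gains from 44.5% to 52.1% and again to 59.7%.

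Hk1, on chromosome 10 at 62268855 to 62379908 (minus strand), reached its later level by day 4. It stood at 10.5, 12.6 and 10.9 RPKM at day 0, at 21.3, 29.1 and 26.1 at day 4, and at 29.5, 26.7 and 22.6 at day 7. Day 0 was separate from both later stages, which overlapped, with means of 25.5 ± 3.95 and 26.3 ± 3.46 RPKM. The log2 fold change from day 0 to day 7 was 1.20 (SE 0.15, limma adjusted p = 1.38e-08).

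Hk2, on chromosome 6 at 82725025 to 82774454 (minus strand), stood higher at each step. Its level was 10.02, 10.5 and 7.51 RPKM at day 0, 25.2, 31.6 and 27.7 at day 4, and 46.2, 39.0 and 35.3 at day 7. No library of a stage overlapped with a library of another stage, and Hk2 was alone among the 9 in having all its day 7 values over the highest of day 4. The mean rose from 9.35 ± 1.62 RPKM at day 0 to 40.2 ± 5.56 at day 7, a log2 fold change of 2.10 (SE 0.16, limma adjusted p = 2.04e-15). Among all genes, 13.8% lay above day 4 in every day 7 library, and 24.6% lay below.

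The exchange between these isoforms can be read within each library, where it does not depend on the scaling of the tables. The ratio of Hk2 to Hk1 in RPKM was 0.958, 0.837 and 0.686 in the day 0 libraries, 1.18, 1.09 and 1.06 at day 4, and 1.57, 1.46 and 1.56 at day 7. The stages were separate at each step, and the mean log2 ratio moved from -0.29 ± 0.24 to 0.15 ± 0.08 and 0.61 ± 0.06 (SD, n = 3, exact permutation test, two-sided p = 0.1 for each pair, the smallest possible). The Hk2 share of all hexokinase RPKM went from 44.5% ± 4.12 to 52.1% ± 1.49 and 59.7% ± 0.79, a gain of 15.3 percentage points from day 0 to day 7, while that of Hk1 went from 54.2% to 47.0% and 39.1%. Hk2 made up 66.6% of the increase in summed hexokinase RPKM from day 0 to day 7 and 56.7% of that to day 4. These parts depended on length. Per length of the principal transcript, Hk2 had means of 10.1, 30.5 and 43.5 at days 0, 4 and 7. Those of Hk1 were 25.1, 56.5 and 58.2. By that length Hk1 gained more than Hk2 to day 4, and both gained about alike to day 7.

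Which isoform was the more abundant depended on the length by which reads were divided. The length behind the RPKM was 8532 bases for Hk1 and 5969 for Hk2, whereas the principal transcripts in the annotation used here (GENCODE M21) were 3851 and 5513 bases long. Hk1 has 20 annotated transcripts there, and the tables do not tell which of them were present. Per length of the principal transcript, Hk2 made up 28.4%, 34.9% and 42.4% of all hexokinases at days 0, 4 and 7, so that Hk1 stayed ahead, and without any length correction (CPM) it made up 36.2%, 43.5% and 51.4%. The gain from day 0 to day 7 was 14.0 percentage points by the principal transcript and 15.3 by RPKM. The day 4 and day 7 order of Hk1 and Hk2 was therefore not settled by these data, while the shift toward Hk2 appeared under each length.

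**Figure D3:**
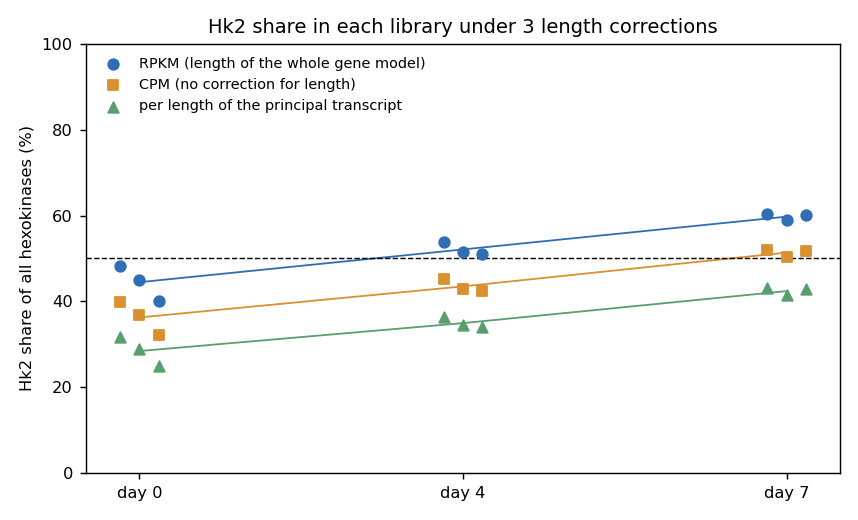
Share of Hk2 in the sum of 5 hexokinases (vertical axis, percent) in each library of day 0, day 4 and day 7, by RPKM (circles), CPM (squares) and reads per length of the principal transcript (triangles). Lines join stage means and the dashed line marks an equal split with all other hexokinases. The 3 lines run nearly parallel, and only the RPKM line lies above 50% at day 4.

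Hk3, on chromosome 13 at 55005985 to 55021385 (minus strand) and best known from blood cells, was the lowest of the 9 at every stage. It had 6 to 10 reads per library at day 0, 22 to 48 at day 4 and 13 to 34 at day 7. Its level was 0.194, 0.204 and 0.210 RPKM at day 0, 0.256, 0.349 and 0.166 at day 4, and 0.577, 0.331 and 0.591 at day 7. All day 7 libraries lay above day 0, day 4 overlapped both, and the log2 fold change was 0.88 (SE 0.28, limma adjusted p = 0.0115). Without day 7 replicate 1 or replicate 3 the adjusted p was 0.0710 or 0.0801, and the value did not pass.

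Of 17 macrophage markers, 14 could be tested and 13 of those were higher at day 7, against 12.6% of all genes tested. As with Hk3, a marker low at day 0 could enter this test through day 7. Their summed level was 53.8 to 89.4 RPKM at day 0, 105.6 to 120.5 at day 4 and 111.3 to 146.8 at day 7. The receptor gene Csf1r, which defines the lineage, stood at 0.672 to 1.39 RPKM at day 0, 1.84 to 1.92 at day 4 and 1.73 to 2.22 at day 7. Hk3 amounted to 0.315% ± 0.075 of the macrophage sum at day 0, 0.225% ± 0.067 at day 4 and 0.379% ± 0.075 at day 7. In this share day 7 lay above day 4 in every library, and day 0 overlapped both. Lyz2 made up most of the macrophage sum, with means of 47.65, 73.4 and 79.4 RPKM at days 0, 4 and 7. From day 0 to day 7 C1qa went from 3.63 to 11.9 RPKM and Cx3cr1 from 0.49 to 0.76. The share of Hk3 would therefore differ with other markers. Genes of neutrophils, which are also known to express Hk3, summed to at most 1.14 RPKM, with Ly6g and Elane at 0 throughout. The part of macrophages in the levels of Hk3, Slc2a3 and Slc2a6 was not tested.

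Hkdc1, a further hexokinase gene, was close to the counting limit and did not reach the filter. It had 1 to 3 reads at day 0, 0 to 4 at day 4 and 0 in all day 7 libraries.

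Gpi1, on chromosome 7 at 34201330 to 34230336 (minus strand), was the most abundant of the 9 at day 0. It stood at 30.8, 32.8 and 28.1 RPKM at day 0, at 47.2, 70.0 and 60.4 at day 4, and at 68.7, 67.4 and 58.3 at day 7. Day 0 was separate from the later stages, which overlapped. The mean rose from 30.6 ± 2.34 to 64.8 ± 5.69 RPKM, a log2 fold change of 1.08 (SE 0.15, limma adjusted p = 1.25e-07). Of its 50-base words, 15.8% also occur in other transcripts, chiefly Gm26762 on the other strand and the pseudogene Gm1840, which had means of 0.385 to 1.30 and 0.400 to 0.611 RPKM at the 3 stages.

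Levels were also set against that of Gpi1 within each library. The log2 ratio of Slc2a1 to Gpi1 went from -0.44 at day 0 to 0.84 at day 4 and 0.50 at day 7, with no overlap between stages. That of Hk2 to Gpi1 went from -1.72 to -1.06 and -0.70, again without overlap. That of Hk1 to Gpi1 was -1.43, -1.21 and -1.31, and days 0 and 7 overlapped (exact permutation test, two-sided p = 0.2). Slc2a1 over Hk2 had a mean log2 ratio of 1.28 at day 0, 1.90 at day 4 and 1.20 at day 7, higher at day 4 in every library, with days 0 and 7 overlapping (p = 0.6 by the same permutation test). Of 7 such ratios compared, 5 reached the smallest possible p of 0.1 between days 0 and 7, or 0.14 after Benjamini-Hochberg adjustment, and all but that of Hk2 to Hk1 were chosen after the levels were seen.

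At day 7 the mean was above that of day 0 for 8 of the 9, against 37.8% of all genes, and 7 of the 9 were separate from day 0 on the higher side, as were 16.9% of all genes. At day 4 all 9 genes had a higher mean than at day 0, where 43.3% of all genes did, and 5 of the 9 were likewise separate, as were 21.1% of all genes. From day 4 to day 7 the mean was higher for 6 of the 9, against 40.5% of all genes, and this number ranged from 4 to 7 when libraries were left out in turn. The value of 4 came from leaving out replicate 1 of either stage. Slc2a1, Slc2a3 and Slc2a6 had their highest mean at day 4, as did 28.7% of all genes. Day 4 replicate 1 was the lowest of its stage for 8 of the 9 genes, and day 4 replicate 2 the highest for 8.

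The order of levels in RPKM changed with the stage. At day 0 it was Gpi1, Slc2a1, Hk1, Hk2, Slc2a8, Slc2a6, Slc2a3, Slc2a4 and Hk3, in which Hk1 overlapped Hk2 and Hk2 overlapped Slc2a8. At day 4 Slc2a1 led Gpi1 in every library, Hk2 overlapped Hk1, and Slc2a3 had moved above Slc2a6 to overlap Slc2a8. At day 7 Slc2a1 overlapped Gpi1, and all other neighbours were separate. Several of these ranks rest on the lengths behind the RPKM. By CPM and per length of the principal transcript, Slc2a1 overlapped Gpi1 at day 4 too, and Hk2 was not above Hk1 in every library at any stage. Slc2a3 lay above Slc2a8 in every library at days 4 and 7 by CPM, and overlapped it at both per length of the principal transcript.

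**Figure D4:**
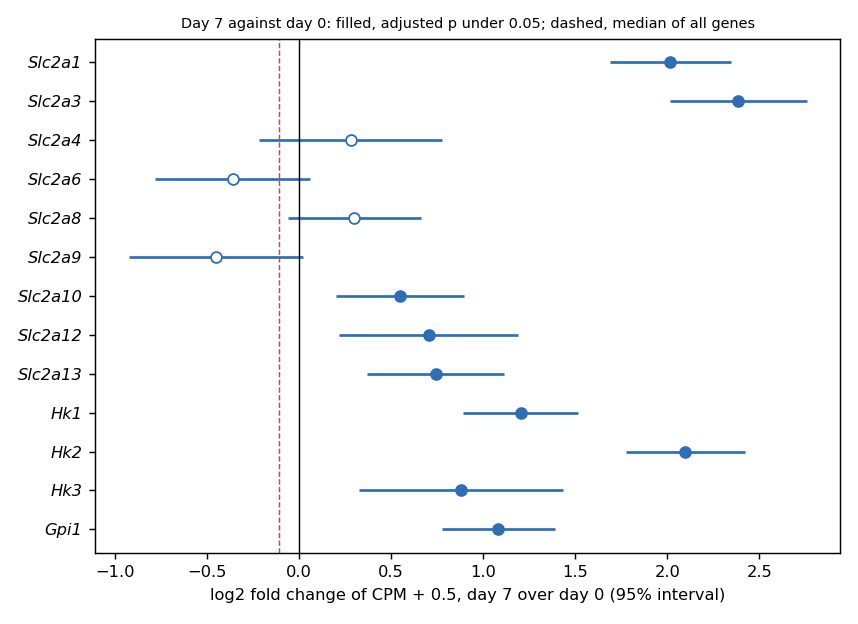
Log2 fold change from day 0 to day 7 (horizontal axis, on the log2 scale of CPM + 0.5) for the 9 genes and 4 further transporters that passed the filter. Circles are estimates with 95% intervals from limma, filled where the adjusted p is under 0.05, and the dashed line is the median of all genes at -0.11. Slc2a1, Slc2a3 and Hk2 lie above 2, and the intervals of Slc2a4, Slc2a6, Slc2a8 and Slc2a9 include 0.

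Further lists around glucose 6-phosphate are given by their counts, to be read against 12.6% higher and 18.6% lower among all genes. These shares belong to the main fit. Of all 12712 genes, 2369 fell there, 4696 without day 0 replicate 3 and 1527 to 1732 without any other library. With voomWithQualityWeights 3143 fell. The number that rose was 1602 in the main fit and 2581 to 3008 by edgeR, DESeq2, voomWithQualityWeights and median-of-ratios scaling. The share of each list was not tested against that of another. Among 25 further genes of glycolysis, 21 were tested, 14 rose and 2 fell, with a median log2 fold change of 0.93. The fallers numbered 1 without day 0 replicate 1, day 7 replicate 1 or day 7 replicate 2, and also by edgeR, DESeq2, voomWithQualityWeights, median-of-ratios scaling and other filters on low values. Aldoc, an aldolase, went from 1.25, 0.922 and 1.11 RPKM at day 0 through 7.79, 16.8 and 11.9 at day 4 to 16.6, 16.7 and 12.1 at day 7 (log2 fold change 3.61, limma adjusted p = 1.75e-21). Ldhb, the lactate dehydrogenase subunit typical of heart, fell from 8.46 ± 1.29 to 3.96 ± 0.529 RPKM (-1.03, adjusted p = 4.16e-05).

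In the pentose phosphate pathway, which draws on glucose 6-phosphate, 8 of 10 genes were tested, 1 rose and 2 fell, near the shares over all genes. The riser was Rpia, ribose 5-phosphate isomerase (1.07), and the larger fall was that of Rpe, its epimerase counterpart (-0.55), beside G6pdx, the entry enzyme, at 14.0 ± 1.29 and 9.49 ± 0.202 RPKM (-0.55). The number that fell was 5 without day 0 replicate 3 and 1 when any of day 0 replicates 1 and 2 and day 7 replicate 1 was left out. The median of this list was -0.26.

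Glycogen genes split, with 5 of 14 tested higher and 3 lower. Pygl, the liver-type phosphorylase, stood at 1.19, 1.00 and 1.05 RPKM at day 0, 8.10, 18.4 and 13.8 at day 4, and 17.3, 19.7 and 11.4 at day 7 (3.71, limma adjusted p = 7.96e-22). Pygb, the brain-type phosphorylase, fell from 47.3 ± 5.98 to 25.7 ± 1.94 RPKM (-0.87, adjusted p = 1.07e-05). The later libraries of both genes were separate from day 0, in opposite directions, and Pygb remained the more abundant at day 7. The number lower was 5 without day 0 replicate 3.

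None of the 10 hexosamine pathway genes rose and 4 fell, led by the deacetylase gene Amdhd2 (-0.74, limma adjusted p = 0.000525). Leaving out day 0 replicate 2 or day 7 replicate 2 brought that count to 1, leaving out day 0 replicate 1 or day 7 replicate 3 to 2, and leaving out day 0 replicate 3 to 6. Of 8 tested genes for release of glucose 6-phosphate and for other glucose transport, 2 rose and 1 fell (2 without day 0 replicate 3), with Slc37a4, the glucose 6-phosphate carrier of the endoplasmic reticulum, at 0.77 and Slc45a4 at -0.95. In fructose and mannose entry 2 of 10 rose, led by the triose phosphate isomerase gene Tpi1 (1.21), which glycolysis also holds, and none fell (1 without day 0 replicate 3). There 4 rose by edgeR, DESeq2, voomWithQualityWeights or median-of-ratios scaling. Without day 7 replicate 3 the risers numbered 1 here and 1 in the list for release and other transport.

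Regulators of the transporters and hexokinases formed a list of 24 genes, of which 23 were tested, 2 rose and 3 fell, below the shares over all genes in both directions. Txnip, an arrestin-family protein that lowers GLUT1 at the cell surface and whose transcript is known to respond to glucose, had the largest change. It stood at 43.1, 56.0 and 38.4 RPKM in the day 0 libraries, 1.72, 1.17 and 1.68 at day 4, and 1.43, 0.958 and 2.30 at day 7. Every later value was far below day 0, days 4 and 7 overlapped, and the log2 fold change from day 0 to day 7 was -4.79 (SE 0.20, limma adjusted p = 1.68e-25). Arrdc4, its closest relative, fell from 6.29 ± 1.22 to 1.44 ± 0.0239 RPKM (-2.02, adjusted p = 2.33e-12), and Akt1 fell less. Tbc1d4, a GTPase-activating protein on the insulin route to GLUT4, rose from 1.65 to 2.73 RPKM (0.72) and Myc also rose.

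The number of regulators that fell was 12 without day 0 replicate 3, 8 with voomWithQualityWeights and 2 when any other library was left out. Among all genes the number that fell moved as well, from 2369 to 4696 without day 0 replicate 3 and to 3143 with voomWithQualityWeights. The risers numbered 1 without day 0 replicate 1, day 7 replicate 1 or day 7 replicate 3. Hif1a, picked out after its values were seen, was at 55.0, 48.7 and 35.6 RPKM at day 0, 63.6, 65.4 and 68.4 at day 4, and 46.4, 40.4 and 36.6 at day 7. Its day 4 libraries lay above all others, and its log2 fold change from day 0 to day 7 was -0.16 (limma adjusted p = 0.494).

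**Figure D5:**
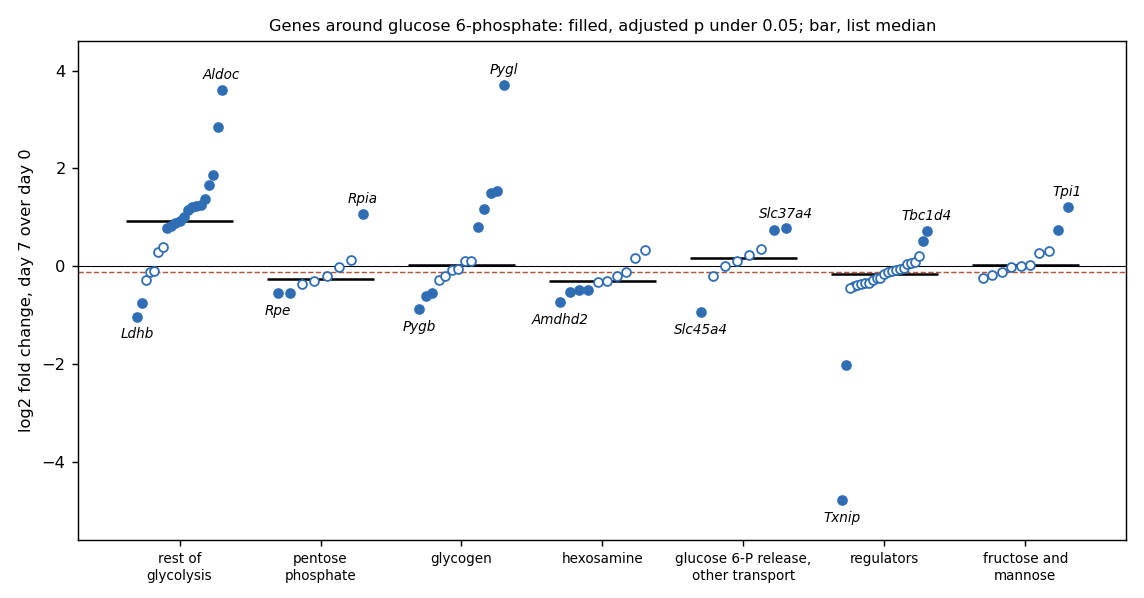
Log2 fold change from day 0 to day 7 (vertical axis) of each tested gene in 7 lists around glucose 6-phosphate. Points are genes ordered by value, filled where the limma adjusted p is under 0.05, with black bars at list medians and a dashed line at the median of all genes, -0.11. The glycolysis list has the highest median, 0.93, and Txnip, at -4.79, has the lowest value of all.

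The genes whose course over the 9 libraries was most like that of the leading members were found among 9100 genes with a mean of at least 10 CPM, by Pearson correlation of log2(CPM + 0.5). For Slc2a1 they were Sik1 (r = 0.993), Ndrg2 (0.992) and Arrb1 (0.992), of which Ndrg2 went from a mean of 1.99 RPKM at day 0 to 17.3 at day 4 and 16.1 at day 7. For Hk2 they were P4ha1 (0.996), Mef2c (0.996) and Fxyd1 (0.995), and P4ha1, a subunit of collagen prolyl hydroxylase, went from 113.6 to 332.4 and 482.5 RPKM. For Gpi1 they were Mxi1 (0.997), Aldoa (0.995) and Ndrg1 (0.994). Among the members, Slc2a1 and Slc2a3 correlated at 0.989, Hk1 and Gpi1 at 0.987, and Slc2a1 and Slc2a6 at 0.249. These values describe 9 libraries in 3 stages that share depth and scaling within a table.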

How the data were processed

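Gene-level RNA-seq tables of 9 libraries were used. Per the study's methods and the labels, total RNA was depleted of ribosomal RNA (Ribo-Zero Gold), reads were aligned to GRCm38 (Ensembl) with STAR 2.0.4b, and unique, unambiguous reads were counted per gene with featureCounts of Subread. The labels write its version as 1.45. Whether counting used strand is not given in the sources used here, so reads of overlapping antisense genes cannot be told apart. The authors deposited CPM, counts scaled to the library total, and RPKM, CPM divided by the length of the gene model, in 1 pair of tables for days 0 and 7 and another for day 4. Repeated lines were read once. Divided by the value of 1 read, 100% of CPM values were whole within 0.01 reads plus 0.0001 of the count, which gave the depth of each library.

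Days 0 and 7 were compared with limma 3.58.1 (R 4.3.3) with a variance trend on log2(CPM + 0.5), over 12712 genes with a mean of at least 1 CPM, with Benjamini-Hochberg adjustment over all of them and a threshold of 0.05. The prior had 42.9 degrees of freedom against 4 residual. This replaced the weights on counts that the study's methods name, which were run as an alternative. Shares and ratios within libraries were compared by exact two-sided permutation. Day 4 was described by values and overlap of libraries. The genes, lists and rules were chosen with earlier results of these data known. Genes named were the 9 members, other family members reaching 0.5 RPKM, the largest rise and fall in each pathway list, and the 3 genes most correlated with Slc2a1, Hk2 and Gpi1, and other genes are marked or stand beside a result. Alternatives were other pseudocounts, filters, scaling, the RPKM table, edgeR 4.0.16, DESeq2 1.42.0, voomWithQualityWeights, a robust trend, a replicate block and each library left out. The scripts were tested on simulated data. Some items are not reported here. Promoters came from RefSeq and gene positions from GENCODE M21, both on GRCm38.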

Additional observations from a re-analysis of the deposited data

How the results depend on the processing

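The counts of 6 risers and 0 fallers among the 9 genes were 5 to 7 and 0 under the 17 alternatives. Slc2a1 (log2 fold change 1.90 to 2.22), Slc2a3 (1.99 to 2.61), Hk1 (1.12 to 1.32), Hk2 (1.95 to 2.22) and Gpi1 (1.02 to 1.20) passed in each, Hk3 (0.50 to 1.45) in 14 of 16, Slc2a8 in 4 of 17, and Slc2a4 and Slc2a6 in none. No direction reversed. The scale mattered for all genes. Median-of-ratios scaling moved their median from -0.11 to -0.01 and the share of higher among called genes from 40.3% to 51.8%, and it was 50.6% by edgeR, 52.6% by DESeq2 and 25.4% without day 0 replicate 3. The genes called numbered 3971 and went to 6151 with voomWithQualityWeights and 6299 without day 0 replicate 3, and the cause was not tested. The pathway genes that fell, 15 in all, numbered 9 to 33 when libraries were left out, 33 without day 0 replicate 3 and 9 without day 0 replicate 1 or day 7 replicate 2. The gain of Slc2a1 was 17.5 percentage points when only the 5 listed transporters made up the family, whose base is then smaller by construction. Per length of the principal transcript, an alternative chosen after seeing the data, it was 23.0. Same-numbered libraries of days 0 and 7 did not deviate together (r = -0.017, -0.181 and -0.444), so that the numbers were not taken as pairs. With a replicate block 3413 genes were called and the members that rose still numbered 6. Depth limits Hk3, Slc2a4 and Hkdc1.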

Other observations

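Several annotated genes overlap members on the other strand. Unc5a overlaps the end of Hk3 by only 34 bases. Its mean levels were 0.461, 0.241 and 0.137 RPKM at days 0, 4 and 7, against 0.203, 0.257 and 0.499 for Hk3. Unc5a was thus not below Hk3 at day 0. The other neighbours were far lower than the members they overlap. Hk1os, antisense to Hk1, had mean levels of 0.191, 0.204 and 0.344 RPKM at days 0, 4 and 7, and Gm17034, antisense to Hk2, had 0.173, 0.196 and 0.549. Gm12868, antisense to Slc2a1, had no reads at day 0 and 1.02 and 1.36 RPKM later, on at most 23 reads in any library.

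The counts of markers here are to be read against 12.6% higher and 18.6% lower among all genes tested. Of 8 proliferation markers, none rose and 5 fell from day 0 to day 7, with a median log2 fold change of -0.64. Of 4 osteoclast markers tested, Acp5 (2.74), Atp6v0d2 and Ctsk rose and Mmp9 fell. Of 5 chondrocyte markers tested, 3 rose, led by Comp (1.60), and 2 fell, led by Col2a1 (-2.16). Libraries of a stage varied widely in these genes. Col2a1 stood at 239.3 ± 156.6 RPKM at day 0 and 53.5 ± 34.3 at day 7 (SD, n = 3). Comp stood at 8.09 ± 4.55 and 24.45 ± 11.6. The only skeletal muscle marker tested, Acta1, rose, and the only adipocyte marker tested did not pass. No endothelial, red blood cell or neutrophil marker reached the filter.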
